A study of Homo sapiens with 16 samples.

Results

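H1 human embryonic stem cells that served as controls, at day 3 of differentiation to definitive endoderm, were set against the same line at day 0, when it was pluripotent. The members were defined by their labels, with earlier results of these data known: 2 arrays of day 3 and 2 arrays of day 0. This is 4 of the 16 arrays of the series, and 18132 genes were read on each. H1 is an established pluripotent line, and both groups carried an empty lentiviral vector (pLL3.7) and received no doxycycline. The day 3 cells had 2 days of activin A (50 ng/mL), BMP4 (10 ng/mL) and FGF2 (20 ng/mL) and then 1 day of activin A alone (50 ng/mL), whereas the day 0 cells had none of this treatment. The other 12 arrays held control cells of days 4 and 5, cells with a hairpin RNA against GATA6 at days 3, 4 and 5, and day 5 cells of the hairpin line with an inducible GATA6 transgene. Per the methods of the study, the vector lines were polyclonal, the 2 arrays of a group came from independent differentiations, and undifferentiated cells were kept on mouse embryonic fibroblasts or on an E-cadherin substrate. Which of these surfaces the 4 arrays came from is not given in the sources used here. The vector line was not compared here with H1 cells that lack it.

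In the embryo, cells of the epiblast leave pluripotency at the primitive streak, where Nodal, BMP, WNT and FGF signals act together. Cells passing through the streak become mesoderm or definitive endoderm, the layer that forms gut, liver, pancreas and lung. In culture, activin A stands in for Nodal, and BMP4 and FGF2 are added to start the streak stage before activin A alone carries cells toward endoderm. A culture between both stages can hold cells of streak, mesoderm and endoderm character, and RNA of the whole culture cannot tell fewer cells of a type from less RNA per cell.

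All levels below are deposited log2 values of the array (robust multi-array average, RMA), with 1 probe set per gene, and each difference is day 3 minus day 0. Its standard error came from the limma fit described next, in which the spread was pooled over all 16 arrays and moderated across genes. That error is not the spread of the 4 day 3 and day 0 arrays alone, and can be smaller where the arrays of a day disagree. Calls came from a limma fit to all 16 arrays with 1 mean per group, where p-values were adjusted by the method of Benjamini and Hochberg across the 18132 genes and had to lie below 0.05. Where the mean of a group lay at or below the mean lower quartile of its own 2 arrays, no fold is given, since background limits the size of such a difference. Lower quartiles were 3.36 to 3.5 log2 over all arrays, and 3.39 and 3.44 log2 for the day 0 arrays. HHEX (day 0 mean 3.42 log2) and FLRT3 (3.43) lay just above this limit, so background may limit their folds too. Across genes the day 0 arrays correlated at r = 0.9903, as a description. bioB, a bacterial control spiked in at hybridisation, read 8.72 and 8.83 log2 at day 3, against 7.89 and 7.77 log2 at day 0, and the 3′ minus 5′ difference of ACTB was 1.36 and 2.19 log2 at day 3, against 0.931 and 1.08 log2 at day 0. Both readings separated the days, so hybridisation and RNA state cannot be told apart from the day.

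By day 3 the control cells carried much higher levels of factors of the primitive streak and of early endoderm, and lower levels of many genes of pluripotency and of the metallothionein family. limma called 2391 of 18132 genes higher at day 3 (13.2%) and 2654 lower (14.6%), and 988 were higher by at least 1 log2 (5.45%) while 846 were lower by at least that much (4.67%). The large changes leaned upward: 345 genes were higher by at least 2 log2 and 173 lower, and 92 were higher by at least 4 log2 against 11 lower. Counts per gene list below stand beside 13.2% of all genes higher and 14.6% lower. Where the 2 groups were fitted alone, 1210 of 18132 genes were higher and 1192 lower. Over all genes the median log2 difference was -0.007. With each array centred on its median, 1945 genes were called higher and 3522 lower, 35.6% of calls higher instead of 47.4%, and the median of all genes was -0.106. Of the called rises, 323 began at or below the lower quartile at day 0, and of the called falls 266 ended there at day 3.

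**Figure D1:**
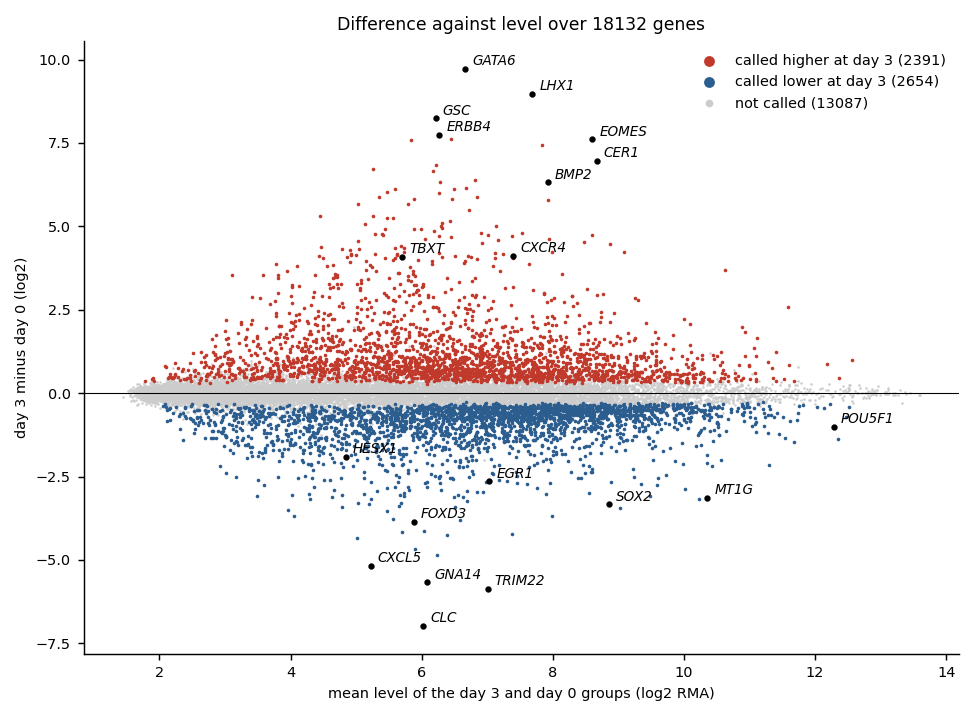
Each point is 1 of 18132 genes, with the mean log2 RMA level of the day 3 and day 0 groups on the x axis and the log2 difference, day 3 minus day 0, on the y axis; colours mark genes called higher (2391), called lower (2654) and not called. Rises reached 9.73 log2 (GATA6) and falls -6.97 log2 (CLC), and 92 genes lay above 4 log2 against 11 below -4 log2.

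GATA6, a zinc finger factor of early endoderm, had the largest rise of all genes. Its levels were 11.44 and 11.60 log2 at day 3, against 1.73 and 1.86 log2 at day 0. GATA6 differed by 9.73 ± 0.28 log2 (adjusted p = 3.28e-10). Both day 3 arrays stood far above both day 0 arrays, which lay below the lower quartile. LHX1, a LIM homeobox factor of the organizer region, had levels of 12.12 and 12.22 log2 at day 3, against 3.04 and 3.35 log2 at day 0 (8.97 ± 0.33, adjusted p = 2.25e-09), although the differences of its 3 probe sets ranged from 0.62 to 8.97 log2. GSC, the goosecoid homeobox factor of the anterior streak, was read at 10.12 and 10.54 log2 at day 3, against 2.07 and 2.11 log2 at day 0. GSC differed by 8.24 ± 0.29 log2 (adjusted p = 2.11e-09). The 2 groups did not overlap in either factor. EOMES, a T-box factor needed for endoderm in mouse embryos, had levels of 12.38 and 12.42 log2 at day 3, against 5.13 and 4.46 log2 at day 0 (7.60 ± 0.20, 195-fold, adjusted p = 1.06e-10), with differences between 7.15 and 9.72 log2 over its 6 probe sets. SOX17, an HMG-box factor that marks endoderm, stood at 10.06 and 10.43 log2 at day 3, against 2.49 and 2.79 log2 at day 0. SOX17 differed by 7.60 ± 0.19 log2 (adjusted p = 1.00e-10). So 5 of the 12 largest rises were transcription factors of the streak or endoderm. Of the others, 6 are described here: the receptor tyrosine kinase ERBB4 (7.74 ± 0.38 log2), gastrin-releasing peptide GRP (7.58 ± 0.47), the Nodal and BMP antagonist CER1 (6.96 ± 0.53, 125-fold), the semaphorin SEMA6D (6.83 ± 0.36), the R-spondin receptor LGR5 (6.73 ± 0.25) and the cytidine deaminase APOBEC3G (6.65 ± 0.30). All 12 were chosen for their size from called genes in which the groups did not overlap, so the separation is a description; 27.6% of all genes had both day 3 arrays above both day 0 arrays. The second probe set of APOBEC3G read a log2 difference of 0.36, and with probe sets that can read several transcripts left out APOBEC3G was not called (adjusted p = 0.239). Sizes also varied over the probe sets of SOX17 (2.61 to 7.60 log2), ERBB4 (1.66 to 7.74), SEMA6D (1.30 to 6.83) and LGR5 (1.68 to 6.73).

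**Figure D2:**
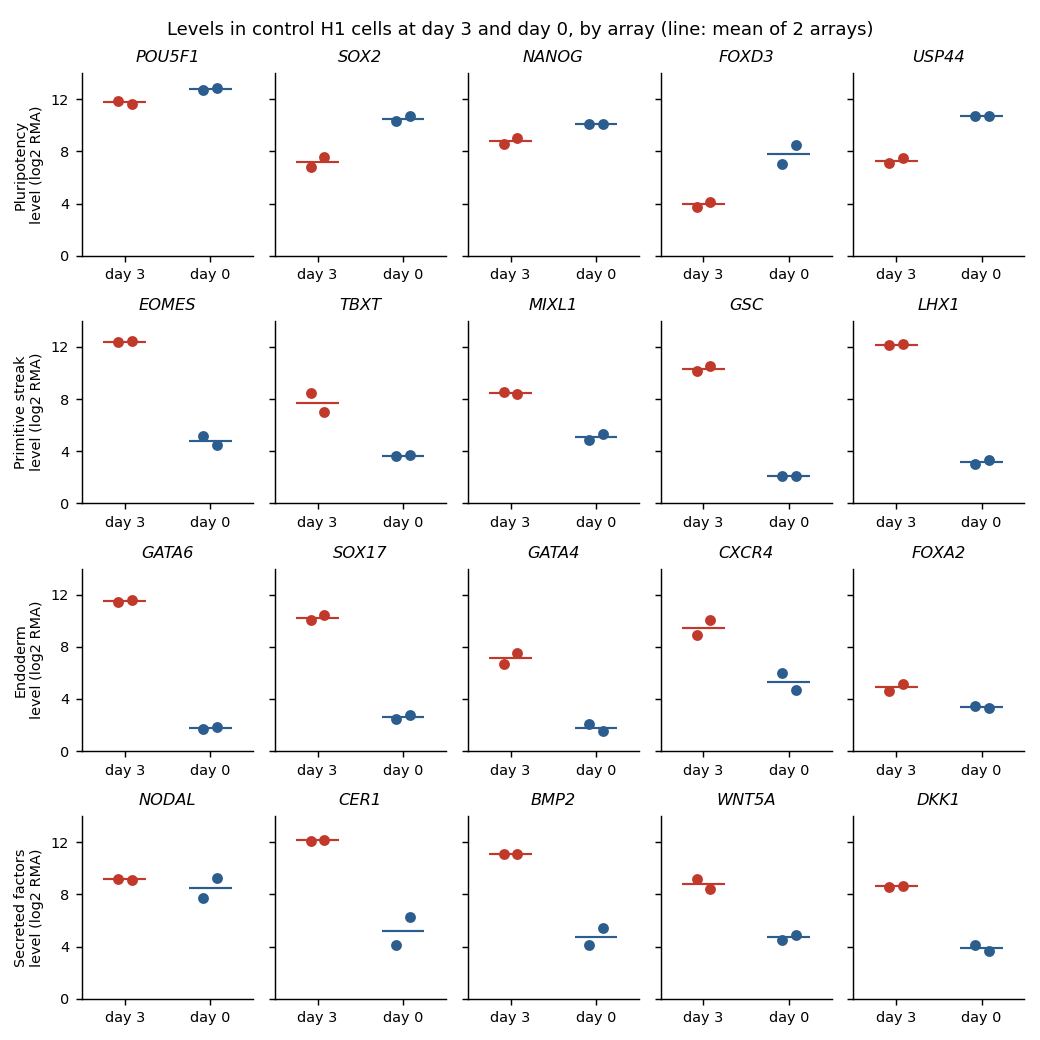
Log2 RMA levels (y axis) of 20 genes in the 2 day 3 arrays (left in each panel) and the 2 day 0 arrays (right); points are arrays and lines are group means. The streak and endoderm factors are higher on both day 3 arrays, the pluripotency factors lower, and NODAL overlaps between the groups.

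In the primitive streak list 15 of 19 measured members were higher, none was lower, and their median log2 difference was 3.37, beside -0.007 over all genes. TBXT, the brachyury T-box factor that marks the streak, had levels of 8.44 and 7.04 log2 at day 3, against 3.62 and 3.69 log2 at day 0. TBXT differed by 4.08 ± 0.37 log2 (17-fold, adjusted p = 4.29e-06). It was above day 0 on both day 3 arrays, and replicate 1 of day 3 read 1.40 log2 higher than replicate 2. MIXL1, a paired-type homeobox factor of mesendoderm, was at 8.52 and 8.37 log2 at day 3, against 4.84 and 5.31 log2 at day 0. MIXL1 differed by 3.37 ± 0.19 log2 (10.3-fold, adjusted p = 6.94e-08). MESP1, a helix-loop-helix factor of nascent mesoderm, was at 8.59 and 8.12 log2 at day 3, against 4.47 and 4.09 log2 at day 0. MESP1 differed by 4.07 ± 0.39 log2 (16.8-fold, adjusted p = 5.95e-06). In both, the groups lay well apart. SP5, a WNT target of the zinc finger class, was at 7.94 and 7.65 log2 at day 3, against 3.05 and 3.03 log2 at day 0. SP5 differed by 4.75 ± 0.19 log2 (adjusted p = 3.21e-09). FGF8, a growth factor that streak cells need to migrate, was at 6.495 and 6.78 log2 at day 3, against 3.43 and 5.52 log2 at day 0. FGF8 differed by 2.16 ± 0.46 log2 (4.47-fold, adjusted p = 0.00336). For FGF8 the day 0 arrays disagreed, and the difference was 1.11 without day 0 replicate 1. The 4 members that were not called were EVX1 (0.06), TBX6 (0.53), CDX1 (0.02) and CDX2 (-0.10), the last 2 of which mark posterior embryo and hindgut.

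Endoderm markers were called higher in 14 of 19 measured genes, with a median log2 difference of 4.12, and the size of the rise differed widely among them. GATA4, the partner of GATA6 in endoderm, had levels of 6.67 and 7.54 log2 at day 3, against 2.07 and 1.54 log2 at day 0. GATA4 differed by 5.30 ± 0.31 log2 (adjusted p = 8.64e-08), and its 3 probe sets ranged from 1.13 to 5.30 log2. HHEX, a homeobox factor of anterior endoderm, was at 8.03 and 8.64 log2 at day 3, against 3.81 and 3.03 log2 at day 0. HHEX differed by 4.92 ± 0.36 log2 (30.2-fold, adjusted p = 6.20e-07). CXCR4, a receptor for CXCL12 on endoderm cells, was at 8.89 and 10.02 log2 at day 3, against 6.005 and 4.67 log2 at day 0. CXCR4 differed by 4.12 ± 0.42 log2 (17.4-fold, adjusted p = 1.14e-05). All 3 were higher on both day 3 arrays, and replicate 2 of day 3 exceeded replicate 1 each time. OTX2, a homeobox factor of the anterior embryo, was at 10.83 and 11.40 log2 at day 3, against 5.42 and 7.85 log2 at day 0 (4.48 ± 0.56, 22.3-fold, adjusted p = 5.57e-05), so that even the higher day 0 array lay below both day 3 arrays. FGF17 was at 7.04 and 8.39 log2 at day 3, against 3.04 and 4.03 log2 at day 0. FGF17 differed by 4.18 ± 0.42 log2 (18.2-fold, adjusted p = 8.75e-06). FOXA2, the forkhead factor that gut endoderm keeps, rose less, at 4.63 and 5.18 log2 at day 3, against 3.46 and 3.27 log2 at day 0. FOXA2 differed by 1.54 ± 0.38 log2 (adjusted p = 0.00849). Its call did not hold when 1 array was left out, at 1.27 without day 3 replicate 2 (adjusted p = 0.0787) and 1.45 without day 0 replicate 2 (adjusted p = 0.0503). FOXA1 (-0.07) and FOXA3 (-0.01), its relatives, were not called. CLDN6, a claudin of tight junctions, was the 1 member that fell (-1.28 ± 0.17, adjusted p = 1.03e-04). When a gene's probe sets were averaged instead, the counts were also 14 higher and 1 lower, but the median of the list was 2.38 log2.

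Pluripotency genes fell in 16 of 25 measured members and rose in 2, with a median log2 difference of -1.004, but the core factors fell to different depths. POU5F1 (OCT4), the POU factor that holds the pluripotent state, was at 11.90 and 11.66 log2 at day 3, against 12.74 and 12.83 log2 at day 0. POU5F1 differed by -1.004 ± 0.17 log2 (2.01-fold lower, adjusted p = 5.37e-04). NANOG, its homeobox partner, was at 8.57 and 9.03 log2 at day 3, against 10.07 and 10.13 log2 at day 0. NANOG differed by -1.30 ± 0.16 log2 (2.46-fold lower, adjusted p = 4.68e-05). SOX2, the third core factor, was at 6.79 and 7.58 log2 at day 3, against 10.35 and 10.69 log2 at day 0. SOX2 differed by -3.33 ± 0.23 log2 (10.1-fold lower, adjusted p = 3.71e-07). Both day 3 arrays were below both day 0 arrays for all 3 factors. FOXD3, a forkhead repressor of the epiblast, had the deepest fall of the list, at 3.75 and 4.15 log2 at day 3, against 7.07 and 8.53 log2 at day 0. FOXD3 differed by -3.85 ± 0.34 log2 (14.4-fold lower, adjusted p = 3.00e-06). USP44, a histone deubiquitinase of stem cells, was at 7.11 and 7.48 log2 at day 3, against 10.75 and 10.74 log2 at day 0. USP44 differed by -3.45 ± 0.22 log2 (10.9-fold lower, adjusted p = 1.95e-07). PRDM14, a PR-domain repressor of the pluripotent and germ line states, was at 6.04 and 5.90 log2 at day 3, against 7.76 and 9.47 log2 at day 0. PRDM14 differed by -2.64 ± 0.40 log2 (6.25-fold lower, adjusted p = 2.80e-04). The day 0 arrays differed in PRDM14 and FOXD3, with replicate 2 higher, yet even the lower one exceeded both day 3 arrays. ZFP42 (REX1) fell by a small amount (-0.64 ± 0.15 log2, adjusted p = 0.00533), and was -0.40 without day 0 replicate 2 (adjusted p = 0.0561). The 2 members that rose were GDF3, a Nodal-related ligand (0.85 ± 0.18, adjusted p = 0.00268), and SALL4, a zinc finger factor (0.50 ± 0.17, adjusted p = 0.0389), and the call of SALL4 was lost at 0.19 without day 3 replicate 2 (adjusted p = 0.389) and 0.38 without day 0 replicate 1 (adjusted p = 0.213). Among the 7 that were not called were LIN28A, an RNA-binding protein of stem cells (-0.18, adjusted p = 0.352), and FGF4, a stem cell growth factor (0.29, adjusted p = 0.112). The members outside the naming rule, here and below, were added after their values were seen.

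The largest falls were in genes outside the core pluripotency set. CLC, which encodes the Charcot-Leyden crystal galectin of eosinophils, led them at 2.55 and 2.53 log2 at day 3, against 9.63 and 9.39 log2 at day 0. CLC differed by -6.97 ± 0.17 log2 (adjusted p = 1.00e-10). Both day 3 arrays read it below the lower quartile, far under both day 0 arrays. TRIM22, an interferon-inducible ubiquitin ligase, was at 4.49 and 3.66 log2 at day 3, against 9.83 and 10.04 log2 at day 0. TRIM22 differed by -5.86 ± 0.23 log2 (58.2-fold lower, adjusted p = 3.16e-09). GNA14, a G protein alpha subunit, was at 3.78 and 2.72 log2 at day 3, against 8.76 and 9.08 log2 at day 0. GNA14 differed by -5.67 ± 0.32 log2 (adjusted p = 5.91e-08). CXCL5, a chemokine that attracts neutrophils, was at 2.75 and 2.53 log2 at day 3, against 7.77 and 7.84 log2 at day 0. CXCL5 differed by -5.17 ± 0.21 log2 (adjusted p = 3.21e-09). No day 3 array overlapped the day 0 arrays in these 4 genes. Next came the myosin heavy chain MYH2 (-4.85 ± 0.36 log2, 28.9-fold lower), the Rab GTPase-activating RABGAP1L (-4.69 ± 0.15, 25.7-fold), the collagen COL12A1 (-4.35 ± 0.26), the hyaluronan synthase HAS3 (-4.25 ± 0.22, 19.1-fold), the apelin receptor ligand APELA (-4.23 ± 0.52, 18.7-fold), the copper oxidase HEPH (-4.17 ± 0.19, 18-fold), TXNIP, which binds thioredoxin and limits glucose uptake (-4.12 ± 0.28, 17.4-fold), and FOXD3. COL12A1 rested on probe sets that can read several transcripts: with those left out its difference was 0.11 log2. RABGAP1L was likewise not called without them (-0.17, adjusted p = 0.562), and its 3 probe sets ranged from -4.69 to -0.17 log2. The 4 probe sets of HAS3 ranged from -4.25 to 0.16 log2, and the 4 of MYH2 from -4.85 to -0.38 log2. Those of TRIM22 ranged from -5.86 to -1.66 log2, those of HEPH from -4.17 to -1.96 and those of TXNIP from -4.12 to -1.535. In 29.3% of all genes both day 3 arrays were below both day 0 arrays.

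**Figure D3:**
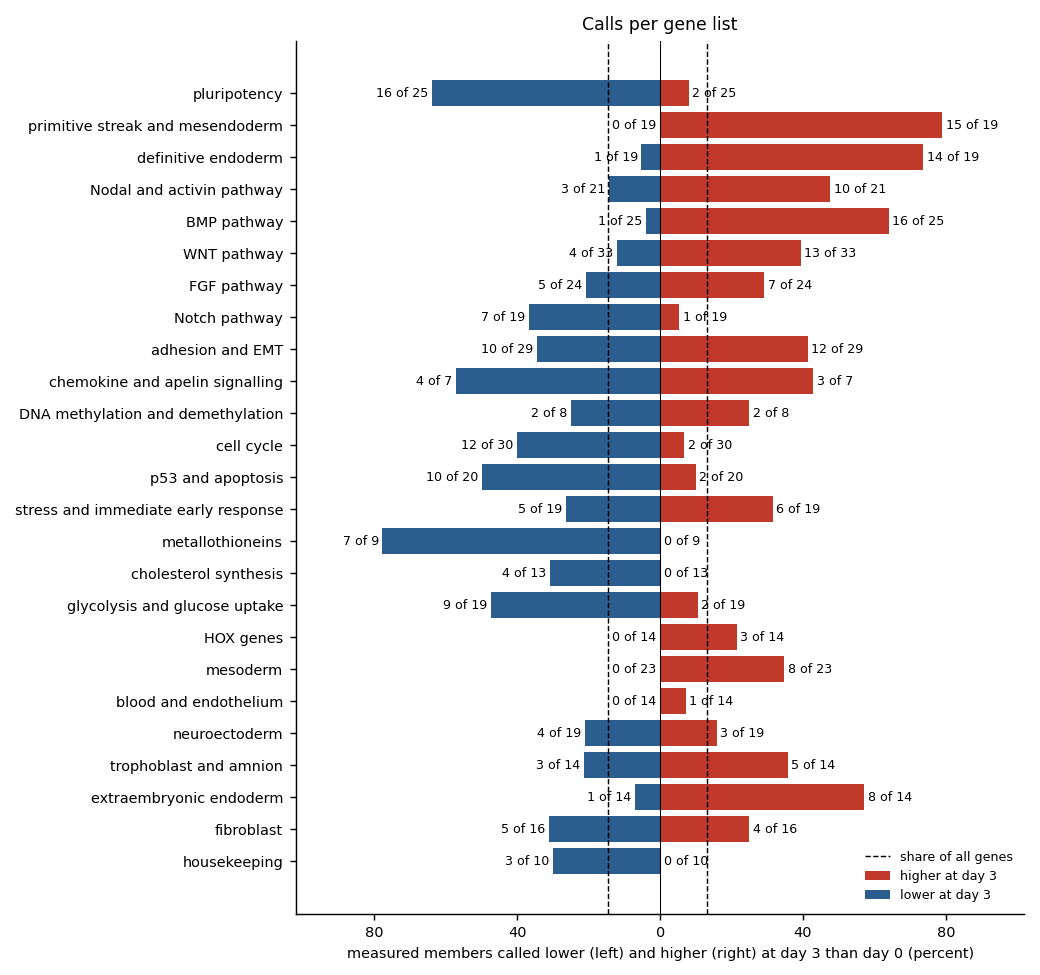
Bars give, for each of 25 gene lists, the percent of measured members called lower (left) and higher (right) at day 3 than at day 0, with counts beside them; dashed lines mark the shares over all genes, 14.6% lower and 13.2% higher. Primitive streak (15 of 19), definitive endoderm (14 of 19) and BMP (16 of 25) genes reach farthest right, metallothioneins (7 of 9) and pluripotency genes (16 of 25) farthest left.

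Nodal and activin pathway genes rose in 10 of 21 measured members and fell in 3, with a median log2 difference of 0.65. The share that fell was near that of all genes (14.6%). Among the ligands, NODAL itself did not pass, at 9.18 and 9.12 log2 at day 3, against 7.72 and 9.25 log2 at day 0 (adjusted p = 0.198), and its groups overlapped, with day 0 replicate 2 the highest array. LEFTY1, the first of the feedback antagonists that Nodal signalling induces, was at 12.25 and 12.04 log2 at day 3, against 10.64 and 12.06 log2 at day 0 (adjusted p = 0.0803), and day 0 replicate 2 lay between the day 3 arrays. LEFTY2 was at 11.64 and 11.82 log2 at day 3, against 9.49 and 11.29 log2 at day 0 (1.35 ± 0.40, 2.54-fold, adjusted p = 0.022), and its difference was 1.44 without day 3 replicate 1 (adjusted p = 0.0581), 1.26 without day 3 replicate 2 (adjusted p = 0.105) and 0.45 without day 0 replicate 1 (adjusted p = 0.158). In NODAL, LEFTY1 and LEFTY2 alike, day 0 replicate 2 read higher than day 0 replicate 1. FST, follistatin, which binds activin, rose (1.68 ± 0.21, 3.21-fold, adjusted p = 6.30e-05), as did the type I receptor ACVR1B (1.57 ± 0.14, 2.96-fold, adjusted p = 2.69e-06) and the signal transducer SMAD2 (1.08 ± 0.13, adjusted p = 4.47e-05). SKIL, a repressor of SMAD proteins, fell (-1.41 ± 0.16, 2.66-fold lower, adjusted p = 3.27e-05), with the activin subunit INHBA (-1.35 ± 0.25, adjusted p = 0.00126) and the corepressor TGIF1 (-0.39 ± 0.10, adjusted p = 0.00906, and -0.34 without day 3 replicate 2 (adjusted p = 0.0597)). INHBE, another activin subunit, was uneven on both days, at 6.06 and 7.73 log2 at day 3, against 4.37 and 6.58 log2 at day 0 (adjusted p = 0.167). The number of members that rose was 5 without day 3 replicate 2 and 6 without day 0 replicate 1, where the median was 0.31 log2. In a fit of the 2 groups alone 4 rose and 2 fell, and LEFTY2 was not called.

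CER1, a secreted protein that binds Nodal, BMP and WNT in frog embryos, was at 12.13 and 12.18 log2 at day 3, against 4.12 and 6.25 log2 at day 0. CER1 differed by 6.96 ± 0.53 log2 (125-fold, adjusted p = 7.52e-07). Its day 0 arrays differed, with replicate 2 the higher, and both lay far below the day 3 arrays. FOXH1, the forkhead partner of SMAD2 in Nodal signalling, was measured at a log2 difference of 0.33 (adjusted p = 0.361). The letters AATNNACA, searched on both strands as a form of its motif, occurred in the promoters of 2 of the 8 largest rises with a promoter in the RefSeq table (CER1 and GRP) and of 1 of 11 such falls (CLC), against 11.1% of 27305 promoters. The promoter of CER1 (GRCh38.p14, minus strand, chr9:14722684-14722983, 250 bases before the start and 50 after) is shown because it held 2 such matches, in capitals:
CER1: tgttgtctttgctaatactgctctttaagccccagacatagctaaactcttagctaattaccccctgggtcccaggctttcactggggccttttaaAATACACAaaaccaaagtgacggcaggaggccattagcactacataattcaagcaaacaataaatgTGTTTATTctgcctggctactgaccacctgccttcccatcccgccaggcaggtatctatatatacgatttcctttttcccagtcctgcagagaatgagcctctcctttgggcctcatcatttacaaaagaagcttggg
In all, 12 kinds of motif were searched with the values known, and a match is a description of these letters only.

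BMP pathway genes were called higher in 16 of 25 measured members and lower in 1, with a median log2 difference of 0.68. The ligand BMP2 rose most, at 11.07 and 11.09 log2 at day 3, against 4.12 and 5.41 log2 at day 0. BMP2 differed by 6.32 ± 0.32 log2 (79.7-fold, adjusted p = 2.37e-08). BMP4, the ligand that was also in the medium for the first 2 days, was at 9.01 and 8.68 log2 at day 3, against 4.24 and 5.43 log2 at day 0. BMP4 differed by 4.01 ± 0.33 log2 (16.1-fold, adjusted p = 1.43e-06). The day 3 arrays were above the day 0 arrays in both ligands. Antagonists rose beside them: BMPER, a secreted BMP-binding protein (6.01 ± 0.28, adjusted p = 1.55e-08), SMAD6, an intracellular inhibitor (4.62 ± 0.24, 24.5-fold, adjusted p = 3.55e-08), and NOG, noggin (2.94 ± 0.23, adjusted p = 9.93e-07). The 2 probe sets of BMPER gave differences of 1.99 and 6.01 log2. The differences of the 3 probe sets of SMAD6 ranged from 0.06 to 4.62 log2, and with probe sets that can read several transcripts left out SMAD6 was not called (0.06, adjusted p = 0.885). GREM1, another secreted antagonist, was the 1 member that fell (-1.57 ± 0.47, adjusted p = 0.0226), and its call was lost at -1.08 without day 3 replicate 2 (adjusted p = 0.196) and -0.64 without day 0 replicate 2 (adjusted p = 0.248). The receptor BMPR2 (2.80 ± 0.24, adjusted p = 2.48e-06) and the target factors TBX3 (3.96 ± 0.20, adjusted p = 2.18e-08), MSX2 (2.73 ± 0.20, adjusted p = 6.05e-07) and HAND1 (3.65 ± 0.50, 12.5-fold, adjusted p = 1.23e-04) were higher. MSX1, a homeobox target, rose less (0.75 ± 0.19, adjusted p = 0.00921) and was not called at 0.68 without day 3 replicate 1 (adjusted p = 0.0546) and 0.70 without day 0 replicate 2 (adjusted p = 0.0512). ID1, a helix-loop-helix inhibitor that BMP induces quickly, was read at 11.15 and 11.04 log2 at day 3, against 9.84 and 11.001 log2 at day 0 (adjusted p = 0.1), with the higher day 0 array close to the day 3 arrays. The difference of ID1 was 1.26 without day 0 replicate 2 and 0.095 without day 0 replicate 1. Its relative ID2 was called higher (1.23, adjusted p = 0.00312), while ID3 (0.465) and ID4 (0.05) were not called.

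WNT pathway genes rose in 13 of 33 measured members and fell in 4, with a median log2 difference of 0.49. The share that fell was near that of all genes (14.6%). WNT5A, a ligand of the streak, was at 9.20 and 8.39 log2 at day 3, against 4.54 and 4.90 log2 at day 0. WNT5A differed by 4.08 ± 0.40 log2 (16.9-fold, adjusted p = 6.90e-06), and its 5 probe sets ranged from 0.89 to 4.15 log2. DKK1, a secreted antagonist that binds WNT co-receptors, was at 8.59 and 8.64 log2 at day 3, against 4.16 and 3.67 log2 at day 0. DKK1 differed by 4.70 ± 0.54 log2 (26-fold, adjusted p = 2.81e-05). DKK4, its relative, was at 8.31 and 7.44 log2 at day 3, against 1.96 and 2.43 log2 at day 0. DKK4 differed by 5.68 ± 0.73 log2 (adjusted p = 7.36e-05). Ligand and antagonists therefore were all higher on both day 3 arrays. LGR5, which binds R-spondins, was at 8.57 and 8.67 log2 at day 3, against 1.87 and 1.91 log2 at day 0. LGR5 differed by 6.73 ± 0.25 log2 (adjusted p = 2.25e-09). The frizzled receptors FZD8 (3.87 ± 0.31, adjusted p = 1.22e-06) and FZD2 (3.03 ± 0.25, adjusted p = 1.58e-06) rose, with the feedback antagonist APCDD1 (2.90 ± 0.23, adjusted p = 1.29e-06). AXIN2, a common target of the pathway, rose as well (1.47 ± 0.29, adjusted p = 0.00184), and by 0.89 without day 0 replicate 1. The 4 that fell were the antagonist SFRP2 (-1.40 ± 0.20, adjusted p = 1.84e-04), the repressor TCF7L1 (-1.34 ± 0.29, adjusted p = 0.00335, and -0.67 without day 3 replicate 1), TCF7L2 (-0.71 ± 0.14, adjusted p = 0.00232) and FZD3 (-0.72 ± 0.25, adjusted p = 0.045), whose call was lost at -0.71 without day 3 replicate 1 (adjusted p = 0.127), -0.73 without day 3 replicate 2 (adjusted p = 0.133) and -0.22 without day 0 replicate 1 (adjusted p = 0.454). In the fit of the 2 groups alone 11 of the 33 rose and 1 fell. CTNNB1, which encodes beta-catenin, was not called (0.17, adjusted p = 0.349).

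FGF pathway genes moved both ways, with 7 of 24 measured members higher, 5 lower and a median log2 difference of 0.02 (-0.08 with each array centred on its median). FLRT3, a membrane protein that binds FGF receptors, rose most, at 9.39 and 9.72 log2 at day 3, against 3.04 and 3.81 log2 at day 0 (6.13 ± 0.31 log2, 69.9-fold, adjusted p = 2.61e-08), followed by FGF17. DUSP4, a phosphatase of the MAP kinase path, was at 8.80 and 9.48 log2 at day 3, against 6.81 and 6.84 log2 at day 0. DUSP4 differed by 2.32 ± 0.20 log2 (4.99-fold, adjusted p = 2.03e-06). The groups did not overlap in either gene. The 5 members that fell were the related phosphatase DUSP6 (-2.04 ± 0.34, adjusted p = 5.72e-04), the stem cell ligand FGF2 (-1.60 ± 0.21, adjusted p = 8.07e-05), the ETS factors ETV1 (-0.86 ± 0.13, adjusted p = 3.33e-04) and ETV4 (-0.76 ± 0.17, adjusted p = 0.00413) and the feedback inhibitor SPRY1 (-0.82 ± 0.16, adjusted p = 0.00219). The 2 groups fitted alone gave 5 higher and 3 lower of the 24. Notch pathway genes leaned downward, with 7 of 19 lower and 1 higher (median -0.26 log2). DNER, a Notch ligand-like membrane protein, was at 3.36 and 2.80 log2 at day 3, against 6.70 and 6.27 log2 at day 0. DNER differed by -3.40 ± 0.25 log2 (adjusted p = 6.74e-07). JAG1, a canonical ligand, was at 6.28 and 5.10 log2 at day 3, against 7.72 and 7.74 log2 at day 0. JAG1 differed by -2.04 ± 0.31 log2 (4.12-fold lower, adjusted p = 3.06e-04). The glycosyltransferase LFNG (-1.76 ± 0.22, adjusted p = 4.95e-05) and RBPJ, the DNA-binding mediator of the pathway (-1.55 ± 0.12, adjusted p = 7.46e-07), fell too, while the target HES1 was the 1 that rose (1.14 ± 0.30, adjusted p = 0.0131), with its call lost at 0.81 without day 3 replicate 2 (adjusted p = 0.133) and 0.81 without day 0 replicate 2 (adjusted p = 0.127).

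Adhesion genes divided, with 12 of 29 measured members higher and 10 lower (median 0.07 log2, and -0.03 with each array centred on its median). Among cadherins, CDH1 (E-cadherin), which joins epithelial cells, was at 9.31 and 8.89 log2 at day 3, against 10.07 and 9.98 log2 at day 0 (-0.92 ± 0.24 log2, 1.89-fold lower, adjusted p = 0.0113), and its call was lost at -0.71 without day 3 replicate 2 (adjusted p = 0.106) and -0.88 without day 0 replicate 1 (adjusted p = 0.053). CDH2 (N-cadherin) was at 11.32 and 11.67 log2 at day 3, against 10.18 and 10.58 log2 at day 0. CDH2 differed by 1.12 ± 0.14 log2 (2.17-fold, adjusted p = 7.63e-05). CDH11, a mesenchymal cadherin, was at 7.64 and 6.49 log2 at day 3, against 2.87 and 3.00 log2 at day 0. CDH11 differed by 4.13 ± 0.59 log2 (adjusted p = 1.66e-04). The days stood apart for all 3 cadherins, with CDH1 lower and CDH2 and CDH11 higher at day 3. The differences of the 6 probe sets of CDH11 ranged from 0.25 to 4.13 log2. Some repressors of E-cadherin rose: ZEB2 (3.54 ± 0.31 log2, adjusted p = 2.98e-06), SNAI1 (1.88 ± 0.28, 3.68-fold, adjusted p = 2.54e-04) and SNAI2 (1.80 ± 0.39, 3.49-fold, adjusted p = 0.00342). The other probe set of ZEB2 gave a difference of 0.40 log2, and TWIST1, another such repressor in the list, was not called. Fibronectin, FN1, rose (1.31 ± 0.14, 2.48-fold, adjusted p = 1.30e-05) with its receptor subunit ITGA5 (1.99 ± 0.33, 3.98-fold, adjusted p = 4.83e-04). The laminin receptor subunit ITGA6 was lower, at 7.61 and 7.19 log2 at day 3, against 9.95 and 9.56 log2 at day 0 (-2.36 ± 0.17, 5.13-fold lower, adjusted p = 4.68e-07), as was the epithelial adhesion molecule EPCAM (-1.05 ± 0.21, 2.07-fold lower, adjusted p = 0.00209). Vimentin, VIM, did not pass (-0.03 log2, adjusted p = 0.947).

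In the chemokine and apelin list every one of the 7 members was called, receptors higher and ligands lower. APLNR, the apelin receptor, was at 9.83 and 9.67 log2 at day 3, against 4.07 and 3.14 log2 at day 0. APLNR differed by 6.14 ± 0.54 log2 (70.7-fold, adjusted p = 2.81e-06). Its ligand APELA was at 6.03 and 4.51 log2 at day 3, against 9.13 and 9.87 log2 at day 0. APELA differed by -4.23 ± 0.52 log2 (18.7-fold lower, adjusted p = 4.98e-05). ACKR3, a scavenger receptor for CXCL12, was at 8.99 and 9.89 log2 at day 3, against 2.86 and 3.35 log2 at day 0. ACKR3 differed by 6.33 ± 0.29 log2 (adjusted p = 1.17e-08). In each of these genes both days stood apart on all arrays. CXCL12, the ligand of CXCR4 and ACKR3, fell (-1.65 ± 0.28, adjusted p = 5.94e-04), with CXCL5 and the second apelin receptor ligand APLN (-0.52 ± 0.17, adjusted p = 0.0313). The call of APLN was lost at -0.55 without day 3 replicate 1 (adjusted p = 0.0758), -0.49 without day 3 replicate 2 (adjusted p = 0.123) and -0.27 without day 0 replicate 1 (adjusted p = 0.285).

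Metallothioneins, small proteins that bind zinc and copper, fell in 7 of 9 measured genes and rose in none, with a median log2 difference of -2.66. MT1G was at 9.0 and 8.57 log2 at day 3, against 11.53 and 12.33 log2 at day 0. MT1G differed by -3.14 ± 0.30 log2 (8.82-fold lower, adjusted p = 5.73e-06). MT1M was at 6.25 and 6.51 log2 at day 3, against 8.65 and 10.19 log2 at day 0. MT1M differed by -3.04 ± 0.37 log2 (8.21-fold lower, adjusted p = 5.02e-05). The falls of MT1H (-2.87 ± 0.33, 7.29-fold, adjusted p = 3.28e-05) and MT1X (-2.77 ± 0.28, 6.8-fold, adjusted p = 1.15e-05) were of like size, and MT2A followed (-2.16 ± 0.26, adjusted p = 4.89e-05). Both day 3 arrays were below both day 0 arrays in the 5 genes just named, and day 0 replicate 2 read highest in all of them. MT1B (-1.27, adjusted p = 0.0516) and MT3 (-0.70, adjusted p = 0.319) were not called. These genes lie in one cluster on chromosome 16 and resemble one another in sequence, so the probe sets may share signal. Their promoters are known for metal response elements, and the core letters TGCACNC or TGCGCNC, searched on both strands, occurred in all 4 of the family with a promoter in the RefSeq table (MT1B, MT1H, MT1X and MT2A), against 29.3% of 27305 promoters, 3 of the 8 largest rises and 4 of the 11 largest falls in that table. The promoters of MT2A (chr16:56608334-56608633), MT1X (chr16:56682220-56682519) and MT1H (chr16:56669564-56669863), all GRCh38.p14 and plus strand, from 250 bases before the start to 50 after, are shown with these cores in capitals, since the 3 genes fell together and the cores recur, 8 times in MT2A, 4 times in MT1X and 8 times in MT1H:
MT2A: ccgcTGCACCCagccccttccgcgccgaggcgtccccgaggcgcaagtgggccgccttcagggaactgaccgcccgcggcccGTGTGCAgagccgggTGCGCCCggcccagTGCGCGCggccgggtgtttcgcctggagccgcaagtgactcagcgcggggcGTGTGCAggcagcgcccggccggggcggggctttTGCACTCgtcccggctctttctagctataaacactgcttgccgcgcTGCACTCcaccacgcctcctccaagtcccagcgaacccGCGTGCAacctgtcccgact
MT1X: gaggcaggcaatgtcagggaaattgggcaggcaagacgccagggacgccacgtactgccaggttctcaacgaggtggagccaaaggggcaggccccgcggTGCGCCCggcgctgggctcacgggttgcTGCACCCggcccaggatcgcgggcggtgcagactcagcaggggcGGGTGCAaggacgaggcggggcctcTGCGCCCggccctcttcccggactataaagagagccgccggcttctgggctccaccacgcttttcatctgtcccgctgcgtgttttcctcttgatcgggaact
MT1H: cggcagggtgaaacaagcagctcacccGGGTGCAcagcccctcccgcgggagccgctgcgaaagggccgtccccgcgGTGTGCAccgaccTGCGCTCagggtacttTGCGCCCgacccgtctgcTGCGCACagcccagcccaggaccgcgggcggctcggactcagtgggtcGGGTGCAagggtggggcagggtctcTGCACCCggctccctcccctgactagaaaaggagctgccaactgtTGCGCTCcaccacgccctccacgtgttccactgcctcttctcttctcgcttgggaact
A match describes these letters only.

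Genes of glycolysis fell in 9 of 19 measured members and rose in 2 (median -0.45 log2). SLC2A1, the glucose transporter GLUT1, was at 9.70 and 8.91 log2 at day 3, against 11.75 and 11.07 log2 at day 0. SLC2A1 differed by -2.10 ± 0.25 log2 (4.3-fold lower, adjusted p = 4.20e-05). The enzymes ALDOC (-1.08 ± 0.12, adjusted p = 1.92e-05), GPI (-1.001 ± 0.11, adjusted p = 2.26e-05) and PGK1 (-0.99 ± 0.11, adjusted p = 2.35e-05) fell by about 1 log2, while pyruvate kinase PKM (0.83 ± 0.15, adjusted p = 0.00125) and the pyruvate dehydrogenase kinase PDK1 (0.75 ± 0.19, adjusted p = 0.0109) rose, and PDK1 was not called at 0.37 without day 3 replicate 2 (adjusted p = 0.114) and 0.59 without day 0 replicate 2 (adjusted p = 0.0938). In cholesterol synthesis 4 of 13 members fell and none rose (median -0.21 log2), and the 4 were 2 without day 3 replicate 1 or day 0 replicate 1 and 6 without day 0 replicate 2. They were DHCR7 (-0.73 ± 0.17, adjusted p = 0.00471), IDI1 (-0.58 ± 0.16, adjusted p = 0.0173), SQLE (-0.58 ± 0.18, adjusted p = 0.0329) and SC5D (-0.50 ± 0.11, adjusted p = 0.00407), enzymes of the pathway. In the fit of the 2 groups alone 1 of the 13 fell. With probe sets that can read several transcripts left out, SQLE was not called (-0.26, adjusted p = 0.363). IDI1 was not called at -0.51 without day 3 replicate 1 (adjusted p = 0.0905) and -0.33 without day 0 replicate 1 (adjusted p = 0.17), nor SQLE at -0.33 without day 3 replicate 1 (adjusted p = 0.269) and -0.31 without day 0 replicate 1 (adjusted p = 0.287). The sterol sensor INSIG1 was at 7.04 and 7.53 log2 at day 3, against 8.62 and 7.36 log2 at day 0 (adjusted p = 0.182), with its day 0 arrays apart.

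Cell cycle genes fell in 12 of 30 measured members and rose in 2 (median -0.28 log2), and the 12 were 8 when day 3 replicate 2, day 0 replicate 1 or day 0 replicate 2 was left out, while 4 rose without day 3 replicate 1. In a fit of the 2 groups alone, 2 of the 30 were lower and 2 higher, with 1192 and 1210 of all 18132 genes, and CCND1, CCND2 and CCNE2 were not called. Of the D cyclins, which drive entry into S phase, CCND3 was not called (-0.04, adjusted p = 0.836), while 2 were lower: CCND1 at 8.07 and 7.99 log2 at day 3, against 8.54 and 9.39 log2 at day 0 (-0.93 ± 0.21 log2, adjusted p = 0.00455) and CCND2 (-0.90 ± 0.22, adjusted p = 0.00731). CCND1 was -0.51 without day 0 replicate 2, and CCND2 was not called at -0.62 without day 3 replicate 1 (adjusted p = 0.0788) and -0.78 without day 0 replicate 2 (adjusted p = 0.0571). CCNE2, an E cyclin, fell (-1.71 ± 0.36, 3.27-fold lower, adjusted p = 0.00294, and -1.10 without day 0 replicate 2). The kinase CDK6, partner of the D cyclins, was higher (1.39 ± 0.22, 2.63-fold, adjusted p = 4.35e-04), as was the spindle checkpoint kinase BUB1 (0.91 ± 0.16, adjusted p = 9.59e-04). MKI67, the proliferation antigen, did not pass (0.60 log2, adjusted p = 0.0793). Genes of the p53 and apoptosis list fell in 10 of 20 and rose in 2 (median -0.51 log2), and in the fit of the 2 groups alone 5 fell and none rose. RRM2B, a p53-induced ribonucleotide reductase subunit, was at 7.42 and 6.54 log2 at day 3, against 8.91 and 8.98 log2 at day 0. RRM2B differed by -1.96 ± 0.21 log2 (3.9-fold lower, adjusted p = 1.82e-05). The death receptor FAS (-1.80 ± 0.31, adjusted p = 7.73e-04), the cell cycle inhibitor CDKN1A (-1.75 ± 0.38, 3.37-fold lower, adjusted p = 0.00364) and PHLDA3 (-1.48 ± 0.30, 2.79-fold lower, adjusted p = 0.00242) were lower. In the fit of the 2 groups alone the calls of FAS (adjusted p = 0.052), CDKN1A (adjusted p = 0.0884) and PHLDA3 (adjusted p = 0.0738) were lost. Their sizes also varied with the arrays: FAS was -1.12 without day 0 replicate 2, CDKN1A -1.13 without day 3 replicate 2 and PHLDA3 -0.94 without day 0 replicate 2. The 2 that rose, BAK1 (0.56 ± 0.17, adjusted p = 0.0277) and GADD45A (0.65 ± 0.20, adjusted p = 0.0292), were not called at 0.35 without day 3 replicate 2 (adjusted p = 0.24) and 0.42 without day 0 replicate 1 (adjusted p = 0.173) for BAK1 or 0.50 without day 3 replicate 2 (adjusted p = 0.187) and 0.24 without day 0 replicate 1 (adjusted p = 0.293) for GADD45A.

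Stress and immediate early genes rose in 6 of 19 and fell in 5 (median 0.23 log2). IER3, an early response gene, was at 9.42 and 9.72 log2 at day 3, against 7.02 and 7.42 log2 at day 0. IER3 differed by 2.35 ± 0.33 log2 (5.12-fold, adjusted p = 1.49e-04). The others that rose were DDIT3 (1.60), ASNS (1.11), ATF4 (0.84, and 0.53 without day 0 replicate 1), CHAC1 (1.63, and 0.74 without day 3 replicate 2) and ATF3 (1.23, and 0.67 without day 0 replicate 1). FOS and JUN were not called. EGR1, a serum-induced zinc finger factor, was at 2.58 and 8.83 log2 at day 3, against 8.56 and 8.15 log2 at day 0, so 1 day 3 array lay below the lower quartile and the other above both day 0 arrays (adjusted p = 0.148). The 5 that fell were TXNIP, the heat shock genes HSPA1B (-2.36 ± 0.21, 5.12-fold lower, adjusted p = 3.32e-06) and DNAJB1 (-0.85 ± 0.15, adjusted p = 8.55e-04), the haem oxygenase HMOX1 (-1.70 ± 0.21, adjusted p = 6.37e-05) and IER2 (-1.35 ± 0.21, adjusted p = 2.86e-04). Without day 3 replicate 2 the counts were 4 higher and 8 lower, and with the 2 groups fitted alone 3 and 4. The DNA methyltransferases DNMT3B (-1.19 ± 0.13 log2, 2.28-fold lower, adjusted p = 2.46e-05) and DNMT3A (-1.36 ± 0.13, 2.56-fold lower, adjusted p = 5.49e-06), which set new methylation, fell. The 11 probe sets of DNMT3B ranged from -1.70 to -0.13 log2, and without those that can read several transcripts its call was lost (-0.43, adjusted p = 0.137). Their cofactor DNMT3L (0.89 ± 0.22, adjusted p = 0.00875) and the demethylating TET2 (0.75 ± 0.22, adjusted p = 0.0207) rose, and the calls did not hold at 0.78 without day 3 replicate 2 (adjusted p = 0.0682) and 0.76 without day 0 replicate 1 (adjusted p = 0.0623) for DNMT3L or 0.57 without day 3 replicate 2 (adjusted p = 0.158) and 0.61 without day 0 replicate 2 (adjusted p = 0.131) for TET2. The maintenance enzyme DNMT1 was not called (-0.03, adjusted p = 0.922).

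Markers of other lineages were measured to see what else the day 3 culture carried. In the mesoderm list 8 of 23 members rose and none fell (median 0.37 log2): besides MESP1, HAND1, BMP4 and SNAI2, the receptor PDGFRA of early mesoderm was at 8.73 and 8.85 log2 at day 3, against 3.78 and 4.44 log2 at day 0 (4.68 ± 0.36 log2, 25.6-fold, adjusted p = 8.50e-07), and FOXF1, a forkhead factor of lateral mesoderm, rose (3.17 ± 0.24, adjusted p = 7.76e-07). The differences of the 4 probe sets of PDGFRA ranged from -0.24 to 4.68 log2. HAND2, in the same list, rose too (1.71, adjusted p = 1.43e-06), while MEOX1 (0.28) and TCF15 (0.01), markers of later mesoderm, were not called. Of blood and endothelium genes 1 of 14 was called, GATA2 (2.21 ± 0.37, adjusted p = 6.19e-04), and the mean level of the list was 4.09 and 3.91 log2 at day 3, against 3.79 and 3.86 log2 at day 0. CDH5, which defines endothelium, lay below the lower quartile on all 4 arrays, at 3.00 and 3.27 log2 at day 3, against 3.06 and 2.73 log2 at day 0. Neuroectoderm genes rose in 3 of 19 and fell in 4, not far from the shares of all genes (13.2% and 14.6%). The falls were SOX3 (-3.39 ± 0.32, 10.5-fold lower, adjusted p = 4.69e-06), HESX1 (-1.92 ± 0.28, 3.78-fold lower, adjusted p = 1.84e-04), POU3F1 (-1.65 ± 0.29, 3.14-fold lower, adjusted p = 8.90e-04) and nestin, NES (-0.80 ± 0.15, adjusted p = 0.00115). SOX3, HESX1 and POU3F1 also belong to epiblast cells. The 2 probe sets of SOX3 gave differences of -3.39 and 0.12 log2. The rises were the zinc finger factors ZNF521 (3.39 ± 0.25, adjusted p = 6.07e-07) and ZIC2 (0.84 ± 0.14, adjusted p = 6.94e-04), and PAX6 (0.66 ± 0.23, adjusted p = 0.046), which was not called at 0.43 without day 3 replicate 2 (adjusted p = 0.306), 0.52 without day 0 replicate 1 (adjusted p = 0.222) and 0.81 without day 0 replicate 2 (adjusted p = 0.0566). Of 14 HOX genes, which pattern the body axis, 3 rose: HOXB2 (2.71 ± 0.46, adjusted p = 6.91e-04), HOXB6 (1.45 ± 0.25, 2.73-fold, adjusted p = 8.13e-04) and HOXB7 (0.85 ± 0.29, adjusted p = 0.0449), the last at or below the lower quartile on both days and called in no fit that left out a single one of the 4 arrays.

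In the trophoblast and amnion list 5 of 14 members rose and 3 fell (median -0.05 log2). GATA3, a factor that BMP induces in trophoblast and amnion, was at 6.69 and 7.54 log2 at day 3, against 4.23 and 4.56 log2 at day 0. GATA3 differed by 2.72 ± 0.23 log2 (6.6-fold, adjusted p = 1.68e-06). TFAP2A, an AP-2 factor, was at 4.87 and 3.66 log2 at day 3, against 1.95 and 2.47 log2 at day 0. TFAP2A differed by 2.06 ± 0.33 log2 (adjusted p = 4.09e-04). ERVW-1 rose as well (1.197 ± 0.30, adjusted p = 0.00935, and 1.88 without day 3 replicate 1 and 0.51 without day 3 replicate 2), with HAND1 and GATA2, while ISL1 (-0.13), VTCN1 (-0.12) and CGA (-0.01), genes typical of amnion or trophoblast, were not called. With probe sets that can read several transcripts left out, the differences of TFAP2A and GATA2 were -0.05 and -0.002 log2. The 3 that fell were TFAP2C (-1.05 ± 0.34, adjusted p = 0.0371), GABRP (-1.04 ± 0.28, adjusted p = 0.0152) and IGFBP3 (-0.80 ± 0.16, adjusted p = 0.00197), and the first was not called at -0.47 without day 3 replicate 2 (adjusted p = 0.368), -1.11 without day 0 replicate 1 (adjusted p = 0.089) and -0.99 without day 0 replicate 2 (adjusted p = 0.136), nor GABRP at -0.92 without day 3 replicate 2 (adjusted p = 0.0959) and -0.92 without day 0 replicate 1 (adjusted p = 0.0827). With the 2 groups fitted alone 4 of the 14 rose and 1 fell. Extraembryonic endoderm genes, which overlap with those of definitive endoderm, rose in 8 of 14 and fell in 1. The apolipoprotein APOA2 was at 5.26 and 7.55 log2 at day 3, against 2.69 and 3.19 log2 at day 0 (3.47 ± 0.57, adjusted p = 5.02e-04), and the laminin chain LAMB1 rose (1.63 ± 0.18, 3.1-fold, adjusted p = 2.41e-05). AFP, alpha-fetoprotein of yolk sac and fetal liver, was the 1 that fell, at 4.04 and 3.29 log2 at day 3, against 7.01 and 7.89 log2 at day 0. AFP differed by -3.79 ± 0.31 log2 (13.8-fold lower, adjusted p = 1.41e-06). Thus AFP was on at day 0 and near the lower quartile at day 3. Fibroblast genes, of interest because feeder cells are fibroblasts, rose in 4 of 16 and fell in 5. The collagens COL5A1 (4.73 ± 0.30, 26.6-fold, adjusted p = 1.84e-07) and COL1A2 (1.54 ± 0.24, 2.91-fold, adjusted p = 3.90e-04), lumican LUM (3.54 ± 0.56, adjusted p = 3.66e-04) and FBLN1 (0.95 ± 0.14, adjusted p = 2.80e-04) rose. THY1, which stem cells also carry, was at 7.29 and 6.84 log2 at day 3, against 10.04 and 10.06 log2 at day 0 (-2.99 ± 0.22, 7.95-fold lower, adjusted p = 7.14e-07), and the other 4 that fell were COL6A3 (-1.11), ACTA2 (-1.36, and -0.86 without day 0 replicate 2), TAGLN (-1.25, and -0.80 without day 3 replicate 2 (adjusted p = 0.117) and -1.02 without day 0 replicate 2 (adjusted p = 0.0795)) and S100A4 (-0.97). With the 2 groups fitted alone 4 of the 16 rose and 3 fell. The mean level of this list was 5.48 and 5.21 log2 at day 3, against 5.14 and 5.28 log2 at day 0, and the part of feeder cells in these values was not tested. Of 10 housekeeping genes 3 fell, PGK1, SDHA (-0.88 ± 0.10, adjusted p = 2.39e-05, and 0.08 with probe sets that can read several transcripts left out) and HPRT1 (-0.66 ± 0.12, 1.58-fold lower, adjusted p = 8.17e-04), while ACTB was at 11.80 and 11.86 log2 at day 3, against 12.07 and 11.98 log2 at day 0 (adjusted p = 0.332).

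The later control arrays show where day 3 stood in the course of differentiation. Between days 5 and 3, limma called 1108 of 18132 genes higher at day 5 (6.11%) and 988 lower (5.45%), and without day 3 replicate 1 these counts were 567 and 577. With the 2 groups fitted alone, 332 genes were higher and 241 lower, and the calls of single genes below were not checked in other fits. The comparison of days 5 and 3 shares the day 3 arrays with that of day 3 and day 0, so the values are given side by side only. Several genes of the streak and nascent mesoderm were highest at day 3 among the days sampled. TBXT, high at day 3, was at 6.25 and 5.21 log2 at day 4 and 4.71 and 4.26 log2 at day 5, a log2 difference of -3.25 for day 5 minus day 3 (adjusted p = 2.50e-04). LIX1, named for its expression in chick limb buds, was at 7.49 and 8.19 log2 at day 3, against 3.66 and 3.55 log2 at day 0 (4.24 ± 0.41 log2), and then at 5.90 and 5.06 log2 at day 4 and 4.11 and 3.44 log2 at day 5 (-4.06, adjusted p = 1.17e-04). At day 5 its arrays lay on either side of those of day 0. Likewise WNT5A (-3.74 log2 for day 5 minus day 3, adjusted p = 1.49e-04), APLNR (-3.71, adjusted p = 9.23e-04) and MESP1 (-3.08, adjusted p = 3.71e-04) fell, the 5 genes being those with the largest falls among genes higher at day 3 than day 0. Other falls after day 3 were in CDH11 (-2.86, adjusted p = 0.00747), DKK4 (-2.81, adjusted p = 0.0259), HAND1 (-2.58, adjusted p = 0.00536), BMPER (-2.52, adjusted p = 2.25e-04), ZEB2 (-2.33, adjusted p = 5.55e-04), SNAI2 (-2.12, adjusted p = 0.00374) and ID1 (-1.55, adjusted p = 0.00402). The day 5 arrays of DKK4 differed, at 5.92 and 4.22 log2. A further set did not pass the test between days 5 and 3: GATA6 (0.01), EOMES (-0.14), SOX17 (0.34), CER1 (0.14) and LGR5 (0.14). Genes higher still at day 5 included APOA2 (3.25, adjusted p = 0.00298), CXCR4 (2.36, adjusted p = 0.00344), DUSP4 (1.86, adjusted p = 1.45e-04), ERBB4 (1.76, adjusted p = 0.00915), FST (1.44, adjusted p = 9.99e-04) and FOXA2 (1.32, adjusted p = 0.0422). The arrays of FOXA2 read 5.48 and 6.97 log2 at day 5, against 4.63 and 5.18 log2 at day 3. Several genes that were lower at day 3 than day 0 were higher again at day 5: APELA (2.31, adjusted p = 0.012), FOXD3 (1.43, adjusted p = 0.0167), EPCAM (1.39, adjusted p = 0.00118), USP44 (1.02, adjusted p = 0.00999) and SOX2 (0.98, adjusted p = 0.015). POU5F1 instead fell further (-0.92, adjusted p = 0.0037), and NANOG was not called (0.06, adjusted p = 0.868).

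**Figure D4:**
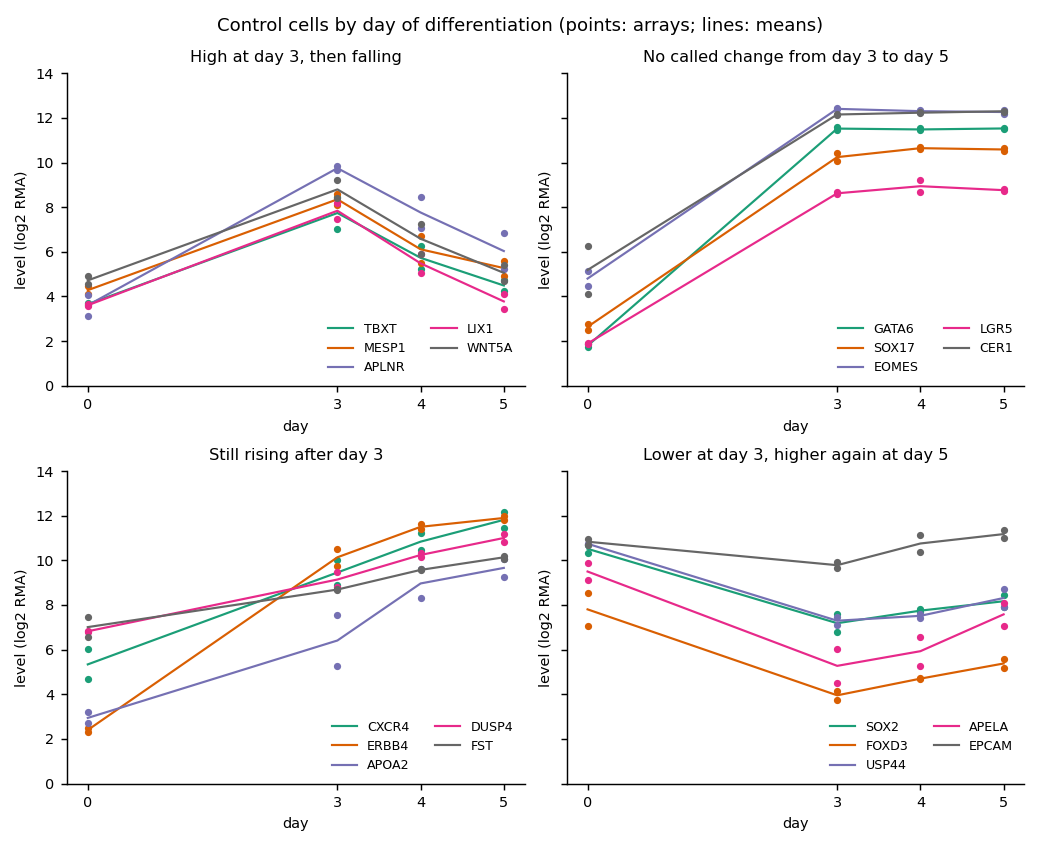
Log2 RMA levels (y axis) of 20 genes in control cells at days 0, 3, 4 and 5 (x axis); points are arrays, 2 a day, and lines join the means. TBXT, MESP1, APLNR, LIX1 and WNT5A are highest at day 3, GATA6, SOX17, EOMES, LGR5 and CER1 were not called between days 5 and 3, CXCR4, ERBB4, APOA2, DUSP4 and FST are higher still at day 5, and SOX2, FOXD3, USP44, APELA and EPCAM are lowest at day 3.

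The 2 day 3 arrays differed in most of the genes that rose, with replicate 2 the higher. Of the 988 genes higher at day 3 by at least 1 log2, 722 (73.1%) were higher in replicate 2 than in replicate 1, with a median gap of 0.257 log2, against 51.9% of all genes and a median gap of 0.013 log2. Of the 846 that were lower by that much, 453 (53.5%) were lower in replicate 2. Of the 5 genes named for the largest falls after day 3, TBXT, WNT5A, APLNR and MESP1 were higher in replicate 1, while LIX1 was higher in replicate 2, at 7.49 log2 in replicate 1 and 8.19 log2 in replicate 2. The ACTB 3′ minus 5′ difference was also higher in replicate 2, and its part in the gap was not tested. The 5 called genes with the largest gaps were, in falling order, PRAC1, ASB5, ACTG2, APOA2 and TACR1. PRAC1, a gene of prostate and distal gut, was at 5.92 and 3.56 log2 at day 3, against 3.02 and 3.08 log2 at day 0 (1.69 ± 0.51 log2, adjusted p = 0.0237), and ASB5, an ankyrin repeat protein, at 4.19 and 6.53 log2 at day 3, against 1.76 and 1.85 log2 at day 0 (3.55 ± 0.71, adjusted p = 0.00206). PRAC1 was high on 1 day 3 array and near background on the other, and its difference was 0.52 without day 3 replicate 1 (adjusted p = 0.148), 1.67 without day 0 replicate 1 (adjusted p = 0.0831) and 1.72 without day 0 replicate 2 (adjusted p = 0.079). ACTG2, the smooth muscle actin, was at 6.25 and 3.92 log2 at day 3, against 8.06 and 8.55 log2 at day 0 (-3.22 ± 0.65, 9.32-fold lower, adjusted p = 0.00227), and -2.06 without day 3 replicate 2, or 0.07 with probe sets that can read several transcripts left out. TACR1, the receptor of substance P, was at 6.11 and 3.85 log2 at day 3, against 2.42 and 2.73 log2 at day 0 (2.40 ± 0.63, adjusted p = 0.0115), and 1.27 without day 3 replicate 1 (adjusted p = 0.128) and 2.25 without day 0 replicate 1 (adjusted p = 0.0595). In PRAC1, ACTG2 and TACR1 replicate 1 of day 3 was the higher day 3 array. The 2 probe sets of ASB5 gave differences of 0.119 and 3.55 log2, and those of TACR1 0.135 and 2.40 log2.

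**Figure D5:**
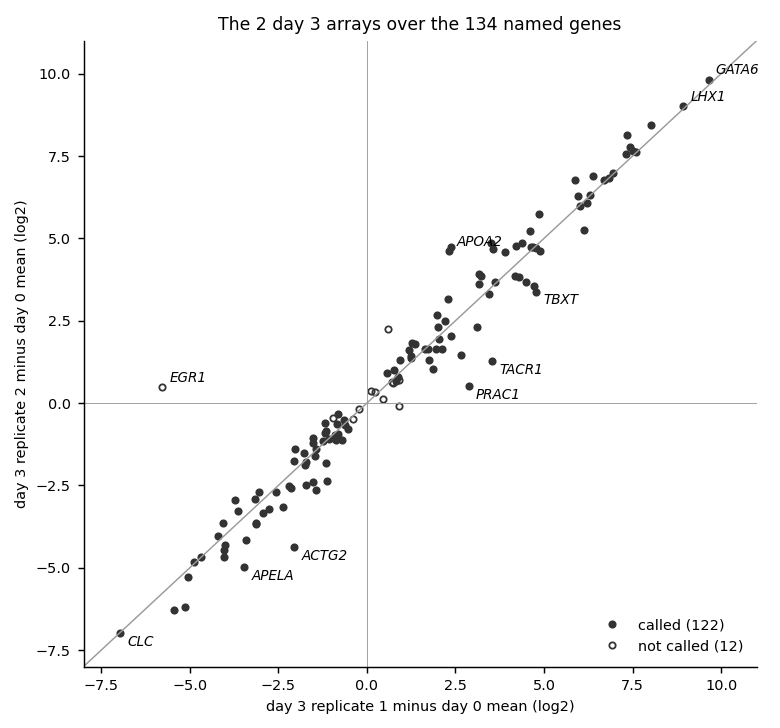
Each point is 1 of the 134 named genes, with the log2 difference of day 3 replicate 1 from the day 0 mean on the x axis and that of day 3 replicate 2 on the y axis; the diagonal marks equal values, filled points are called genes (122) and open points are not (12). EGR1 lies farthest from the diagonal, with levels of 2.58 log2 in replicate 1 and 8.83 log2 in replicate 2, and was not called.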

How the data were processed

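RNA of 16 cultures was hybridised to Affymetrix PrimeView arrays, 1 array per culture and 2 per group, after 3′ in vitro transcription labelling. The authors normalised the arrays by RMA in Partek (version not given in the sources used here) and deposited log2 values for 49395 probe sets. The series table was used as deposited, with all per-sample columns mapped to samples. Probe sets were named through GEO's platform annotation: 44994 had 1 gene, 1832 several and 2569 none. Each gene was read from its brightest probe set on average over the 16 arrays, leaving 18132 genes, of which 11734 had several probe sets. Among 92 named genes with several probe sets, 0 had probe sets beyond 0.3 log2 in both directions. This count cannot show that probe sets agreed in size, since a probe set with little change passes it. Examples are HAS3 (-4.25 to 0.16 log2), PDGFRA (-0.24 to 4.68), JAG1 (-2.27 to -0.21), POU3F1 (-1.65 to -0.25) and LFNG (-1.76 to -0.02).

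limma 3.58.1 (R 4.3.3) was fitted to all 16 arrays with 1 mean per group and empirical Bayes moderation (8 residual degrees of freedom, median standard error 0.152 log2), and p-values were adjusted by Benjamini-Hochberg over all genes. With 2 arrays a group, their number limits the precision, and all p-values measure the spread between these arrays. Tables and figures were made with Python 3.11.15, pandas 2.3.3, numpy 2.4.6 and matplotlib 3.10.9. Promoters came from a RefSeq table (GRCh38.p14).

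The members and the gene lists were chosen with earlier results of these data known. Named genes were the 12 largest called rises and falls with groups that did not overlap, in each list the 4 members that differed most in size, genes picked for their role, the 5 called genes with the largest gap between the day 3 arrays, and the 5 with the largest fall to day 5 among those higher at day 3. Alternatives were other probe set choices, scalings, filters, sample sets, moderation, a replicate block, the methods' thresholds and leaving out each of the day 3 and day 0 arrays. One of the largest rises is not reported here.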

Additional observations from a re-analysis of the deposited data

How the results depend on the processing

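Leaving out 1 array at a time gave 1734 to 2368 genes higher and 2160 to 2598 lower at day 3 than day 0, with 856 to 1142 higher and 808 to 956 lower by at least 1 log2, and 567 to 1318 genes higher and 577 to 1142 lower at day 5 than day 3. Only the day 3 and day 0 arrays were left out in this way, and no day 5 array was. The day 0 arrays are not part of the comparison of day 5 and day 3, so the day 5 counts were not checked against the day 5 arrays. With probe sets that can read several transcripts left out, 8354 genes remained for testing, and 732 were higher and 871 lower (351 and 340 by at least 1 log2), against 297 and 243 for day 5 and day 3. With those probe sets gone, the sign turned for COL12A1 (0.11 log2), GATA2 (-0.002), TFAP2A (-0.049), SDHA (0.083) and ACTG2 (0.071). With the 2 groups alone, 1210 genes were higher and 1192 lower, and 332 and 241 for day 5 and day 3. With control arrays only, chosen after seeing the data, the day 5 counts were 451 and 360. The methods' thresholds, an unmoderated p of at most 0.01 with a z-score of at least 3, gave 350 higher and 201 lower (63.5% higher), and 309 and 151 for day 5 and day 3. Some of these fits used fewer genes or arrays, and the cause of the shifts in the others was not tested.

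Replicate numbers were not used to pair the samples in the main fit. Same-numbered day 3 and day 0 arrays deviated together at a correlation of 0.00728, and the 28 pairs of groups spanned -0.0676 to 0.253. Such correlations cannot show whether same-numbered arrays came from the same differentiation. With the replicate block, 2438 genes were higher and 2688 lower (996 and 847 by at least 1 log2), and 1159 and 1015 for day 5 and day 3, and no call of the 134 named genes changed. Of these 134 genes 122 were called, of which 55 lost the call in at least 1 alternative, 48 of them under the methods' thresholds, and 67 in none that measured them; leaving out probe sets that can read several transcripts measured 71 of the 134 genes and the filter on dim genes 128. With the 2 groups alone 15 lost the call: FGF8, TET2, CDKN1A, CCNE2, CCND1, FAS, PHLDA3, IDI1, SQLE, HPRT1, ZFP42, LEFTY2, CCND2, PRAC1 and TACR1.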
